A study of Saccharomyces cerevisiae S288C with 72 samples.

Results

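The genes described here are 57 ribosome biogenesis factors of budding yeast, chosen as every gene of the table whose name is NOP, UTP, RRP, NSA or ENP followed by a number. They were 57 of 5803 genes measured, and all 57 passed the filter on low values that left 5711 genes for testing. The RNA came from 3 strains of Saccharomyces cerevisiae in the S288C background: a nde1Δ nde2Δ ndi1Δ strain, a cox4Δ strain and the wild type (WT). Each strain was grown at 30 °C in shaken, baffled flasks of minimal medium (YNB with ammonium and 2% glucose) and sampled at 24 times between 0 and 58 h, which gave 72 libraries. NDE1, NDE2 and NDI1 encode the mitochondrial NADH dehydrogenases, and COX4 encodes a subunit of cytochrome c oxidase, so each deletion strain lacks an enzyme of the respiratory chain. There was 1 library for each strain and time, and the labels do not say that more than 1 culture of a strain was grown. Time points were therefore grouped into an early window (0 to 8 h, 7 libraries a strain), a middle window (9 to 16 h, 8 libraries) and a late window (18 to 58 h, 9 libraries). The libraries of a window stand in for replicates, so each p-value rests on how much libraries vary around the fitted means, pooled over strains and windows, and not on separate cultures.

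Ribosome biogenesis factors are the proteins that turn the large ribosomal RNA precursor into the small and the large ribosomal subunit. Box C/D and H/ACA ribonucleoproteins modify the precursor, the UTP complexes and the U3 particle build the small-subunit processome on it, a further set of factors assembles the large subunit, and the exosome trims and degrades precursor RNA. In yeast the genes for most of these factors form a regulon that is expressed in growing cells and repressed when nutrients run out or under stress. Promoters of the regulon often carry a PAC element, which the repressors Dot6 and Tod6 bind, and an RRPE element, which Stb3 binds.

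The core letters of both elements were common upstream of the 57 genes. PAC was searched as GATGAG and RRPE as AAAAATTT, on both strands, in the 300 bases before each start codon of the sacCer3 genome, and matches were allowed to overlap. PAC was found upstream of 46 of 57 members (80.7%), against 1074 of 5772 genes with such a window (18.6%). RRPE was found upstream of 43 members (75.4%), against 899 of all genes (15.6%). Both were found upstream of 35 members (61.4%), against 335 of all genes (5.80%). In 25 members (43.9%) a PAC and an RRPE lay together in a stretch of at most 30 bases, against 3.12% of all genes, and the RRPE came first, farther from the start codon, in 23 of the 25. The exceptions were NOP14 and UTP5. Only RRP45, RRP46 and UTP22 had neither. The 7 pairs shown first belong to the box C/D genes, to UTP9 and to NOP7, UTP11 and UTP6. The last 3 were among the 6 members lowest late against WT in each deletion strain. The others of those 6 had no pair: ENP2, NOP6 and NOP19 in the nde1Δ nde2Δ ndi1Δ strain, and ENP2, NOP19 and UTP4 in cox4Δ. UTP20 and UTP8 show that members with small late differences from WT hold the same pair. The last 5 are members without a pair: ENP2, the exosome genes RRP6 and RRP43, and UTP7 and NOP19, whose WT levels were higher late than early. Capitals mark PAC (GATGAG or its reverse complement CTCATC) and RRPE (AAAAATTT or its reverse complement AAATTTTT). Each is read 5′ to 3′ on the strand of its gene.
NOP1, chrIV:427138-427165, plus strand: AAAAATTTTTcaaattggaaagCTCATC
NOP56, chrXII:545956-545975, plus strand: AAATTTTTttgagtGATGAG
NOP58, chrXV:898477-898494, minus strand: AAATTTTTcaacCTCATC
UTP9, chrVIII:491801-491827, plus strand: AAAAATTTtgAAAAATTTaacGATGAG
NOP7, chrVII:695277-695303, plus strand: AAATTTTTtgcGATGAGATGAGATGAG
UTP11, chrXI:256596-256624, minus strand: AAATTTTTttatggctaGATGAGCTCATC
UTP6, chrIV:1359002-1359030, minus strand: AAATTTTTtagaaagatctgggcGATGAG
UTP20, chrII:227453-227469, plus strand: AAATTTTTaccGATGAG
UTP8, chrVII:750176-750203, minus strand: AAAAATTTgaaaactttGATGAGATGAG
ENP2, chrVII:781672-781699, plus strand: gctaagCTCATCTCATCTCATCggctgt
RRP6, chrXV:326738-326757, plus strand: atcggaAAATTTTTcagtaa
RRP43, chrIII:193066-193083, minus strand: ttagacGATGAGtattgt
UTP7, chrV:326050-326067, minus strand: ctaagcGATGAGttcgtg
NOP19, chrVII:995508-995525, plus strand: tctagcGATGAGattgga

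The run of 3 overlapping PAC matches in ENP2 reads on the opposite strand to the run of 3 in NOP7. In NOP1 the 10 capitals at the left hold RRPE on both strands, and in UTP11 the 12 at the right hold PAC on both. Members held 70 PAC matches in all, 50 of them with their first base 60 to 140 bases before the start codon, at a median of 119.5 bases. Their 60 RRPE matches had a median of 134.5 bases, and 19 members held more than 1 PAC. The letters were less frequent upstream of the exosome genes, with PAC in 3 of 7 and RRPE in 4 of 7, and upstream of UTP22, RRP7 and RRP9, with each in 1 of 3. Small-subunit factors that the name rule leaves out had PAC in 92.7% of 41 genes and large-subunit factors in 90.2% of 51, whereas the 138 cytosolic ribosomal protein genes had it in 11.6%. These are matches of letters, and binding was not measured.

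**Figure D1:**
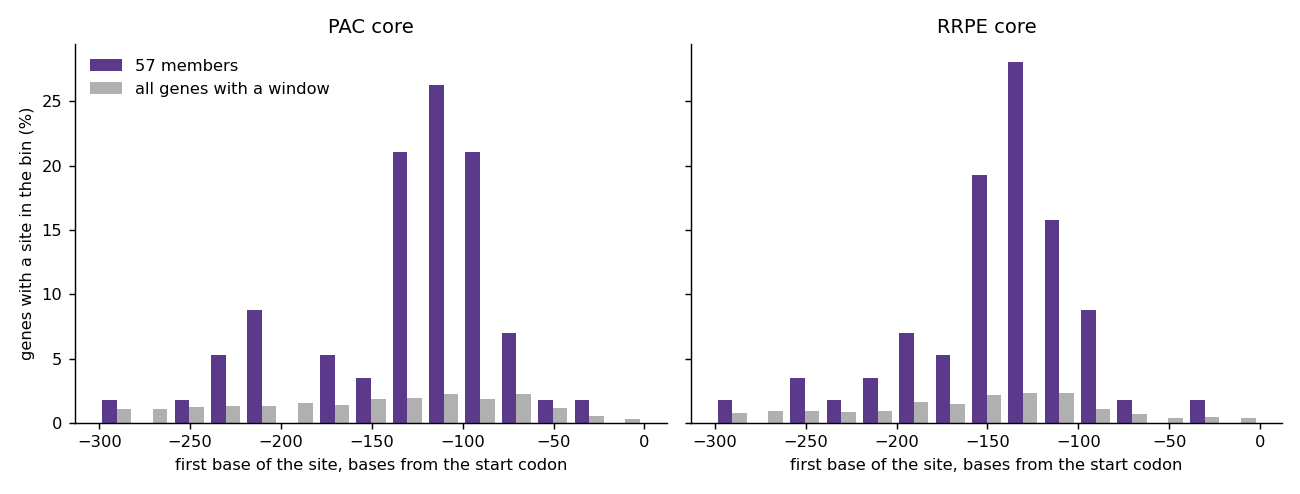
Share of genes (%) with the first base of a PAC core (left) or RRPE core (right) in each 20-base stretch before the start codon, for the 57 members beside all genes with a 300-base window. Members' matches pile up between about 60 and 160 bases before the start codon, and the shares over all genes stay low throughout.

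The labels held in the deleted genes. NDE1 lay between 0.170 and 3.22 TPM (transcript abundance relative to the library's total) in the nde1Δ nde2Δ ndi1Δ libraries, against 104 to 1391 TPM in WT, NDE2 did not exceed 0.602 TPM and NDI1 did not exceed 2.08 TPM in that strain. COX4 lay between 0.396 and 5.21 TPM in cox4Δ, against 321 to 1554 TPM in WT. No 2 libraries held identical values. The deposited unit is TPM, so the sequencing depth is unknown and no counting error can be given. Levels below are rescaled TPM, in which the nuclear protein-coding genes of every library have the same sum, and differences are on the log2(rescaled TPM + 1) scale, which understates changes of low genes. The sample descriptions carry position codes in which each strain has 2 letters of its own, and the letter changes between 13 and 14 h in every strain. Strain and position letter cannot be told apart. A gene was called higher or lower where limma's Benjamini-Hochberg adjusted p was under 0.05 and the difference at least 2-fold. Values are relative to the other mRNAs of the library: fewer cells expressing a gene and less of its mRNA per cell cannot be told apart.

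NOP10, a small protein of H/ACA particles, had the highest mean level of the members over all libraries, at 655 rescaled TPM, followed by NOP1 at 147, and UTP20 had the lowest at 3.01. All 57 genes have a single coding segment and none overlaps another annotated gene. NOP14 and RRP36 each reached the table's lowest value of 0.1 TPM in 1 library.

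During growth the deletion strains and WT expressed the factors at similar levels. In the early window no member was called in the nde1Δ nde2Δ ndi1Δ strain against WT, where limma called 0.193% of all genes higher and 0.0525% lower, and 0 members had an unadjusted p under 0.05 in either direction. The members' median difference was 0.10, beside 0.07 over all genes. In cox4Δ against WT the median was 0.14, beside -0.06 over all genes, no member was called (0.473% of genes were called higher and 0.298% lower), and 1 was higher and 0 lower at an unadjusted p under 0.05. That member was NOP6, a small-subunit factor, at 0.60 (SE 0.21, adjusted p = 0.109), higher in cox4Δ at 6 of 7 times.

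The members then fell in all strains, at different times and to different depths. Each member was set against its own growth level, the mean over 4 to 8 h in its strain. The median member stood at 0.594 of that level at 9 h in the nde1Δ nde2Δ ndi1Δ strain, at 0.775 in cox4Δ and at 0.695 in WT. It was at 0.311 in the nde1Δ nde2Δ ndi1Δ strain at 12 h, against 0.494 in cox4Δ and 0.539 in WT. At 13 h it was at 0.150 in the nde1Δ nde2Δ ndi1Δ strain, against 0.348 in cox4Δ and 0.541 in WT. At 14 h cox4Δ was at 0.157, beside 0.171 in the nde1Δ nde2Δ ndi1Δ strain and 0.468 in WT. By median of ratios the values at 14 h were 0.329 in the nde1Δ nde2Δ ndi1Δ strain, 0.236 in cox4Δ and 0.455 in WT, and the lowest were 0.230 at 13 h in the nde1Δ nde2Δ ndi1Δ strain and 0.236 at 14 h in cox4Δ. The deletion strains thus reached their lowest medians 1 h apart by both scalings. From 15 to 58 h the median lay between 0.173 and 0.236 in the nde1Δ nde2Δ ndi1Δ strain and between 0.159 and 0.339 in cox4Δ. In WT it lay between 0.447 and 0.669 from 15 to 38 h, and was 0.901 at 46 h and 0.751 at 58 h. The range from 15 to 58 h by median of ratios was 0.316 to 0.405 in the nde1Δ nde2Δ ndi1Δ strain, 0.289 to 0.418 in cox4Δ and 0.525 to 0.743 in WT. Over all genes tested the same median at 14 h was 0.510 in the nde1Δ nde2Δ ndi1Δ strain, 0.667 in cox4Δ and 0.968 in WT. The number of members that went below 0.5 of growth level and stayed there to the end was 45 of 57 in the nde1Δ nde2Δ ndi1Δ strain, 46 in cox4Δ and 16 in WT. By median of ratios the numbers were 35, 40 and 18. In every strain some of the members counted were below 0.5 for good only from 58 h, the last library. The share of all genes that stayed below 0.5 was not counted.

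**Figure D2:**
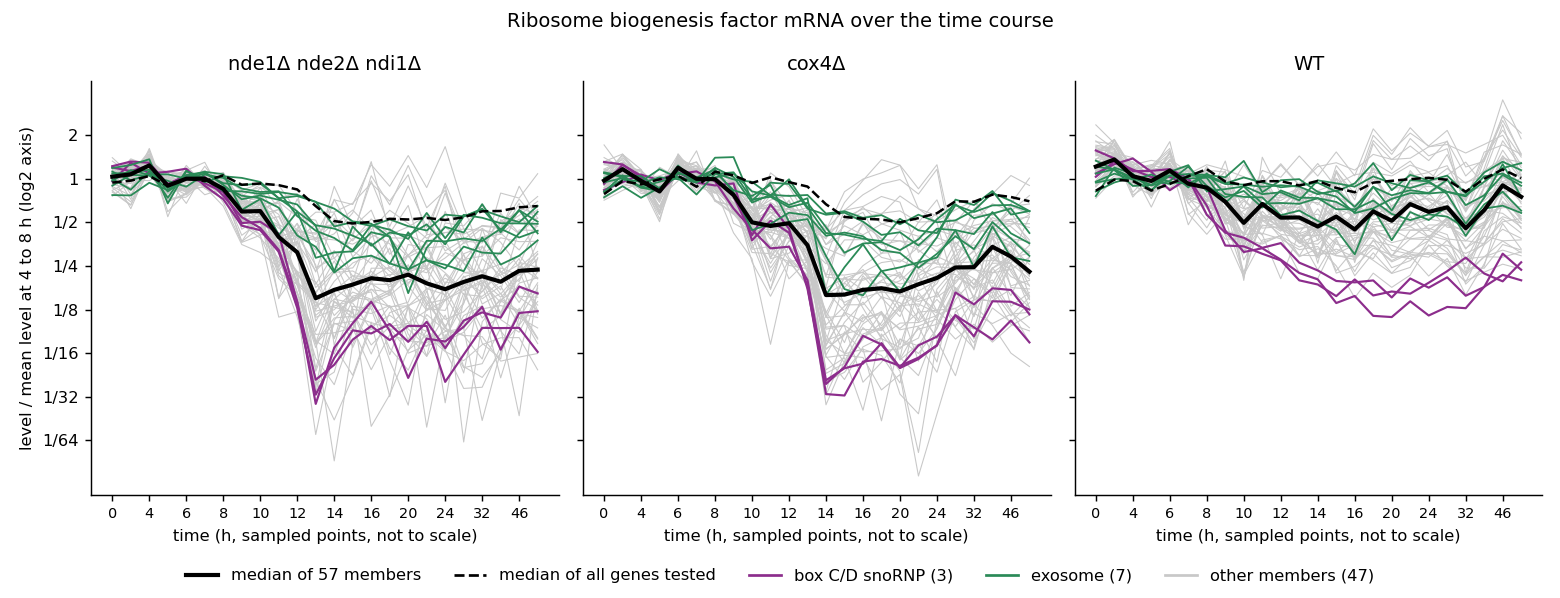
Level of each of the 57 members divided by its own mean at 4 to 8 h (log2 axis) at the 24 sampled times, with sampled times evenly spaced, in the nde1Δ nde2Δ ndi1Δ strain, cox4Δ and WT. The heavy line is the median member, which was at 0.150 at 13 h in the first strain, 0.157 at 14 h in the second and 0.541 at 13 h in WT, and the dashed line is the median of all genes tested. The 3 box C/D genes (purple) lie near the bottom and the 7 exosome genes (green) near the top.

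The roles differed in depth and in return. The median of the 3 box C/D genes was at 0.0322 of growth level at 13 h in the nde1Δ nde2Δ ndi1Δ strain and at 0.0382 at 14 h in cox4Δ, against 0.224 at 13 h in WT. The median of the 7 exosome genes was at 0.472 at 13 h in the nde1Δ nde2Δ ndi1Δ strain and at 0.42 at 14 h in cox4Δ, against 0.741 at 13 h in WT. At these times exosome genes kept more of their growth level than box C/D genes in every strain. At 58 h the median of the 16 large-subunit factors was at 0.298 in the nde1Δ nde2Δ ndi1Δ strain, 0.342 in cox4Δ and 0.994 in WT, and that of the 28 small-subunit factors at 0.218, 0.183 and 0.683. The box C/D median was still at 0.235 in WT at 58 h.

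In each deletion strain a single step held the most 2-fold falls of members. The median member had already gone to 0.311 of growth level at 12 h in the nde1Δ nde2Δ ndi1Δ strain and 0.348 at 13 h in cox4Δ before it. Between 12 and 13 h 18 members fell at least 2-fold in the nde1Δ nde2Δ ndi1Δ strain, where 22.7% of all genes did, and 55 of 57 were lower. NOP56, a core protein of box C/D particles, had 3.64 rescaled TPM at 13 h in that strain, against 18.5 at 12 h, and its step of -2.07 was the lowest of the members. Between 13 and 14 h 28 members fell at least 2-fold in cox4Δ, where 21.3% of all genes did, and 56 of 57 were lower. NOP58, the partner of NOP56, had 3.25 rescaled TPM at 14 h in cox4Δ, against 14.8 at 13 h. The cox4Δ step coincides with the change of position letter, and its part in the step was not tested. Over the same change 3 members fell at least 2-fold in the nde1Δ nde2Δ ndi1Δ strain (5.90% of all genes did) and 3 in WT (2.40%). WT had no step of this size. Its most 2-fold falls came between 9 and 10 h, in 11 members, where 7.09% of all genes fell at least 2-fold. Between 10 and 11 h 7 members rose at least 2-fold, where 4.47% of all genes did. By the members' median the lowest WT step was between 28 and 32 h, at -0.39 with 55 of 57 lower, beside -0.17 over all genes. The median was -0.26 between 9 and 10 h. Each step compares 2 libraries and carries no test.

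In WT the box C/D proteins and several UTP subunits were lower late than early, and other members were not. Limma called 19 of 57 members lower late than early, where 14.7% of all genes were called lower, and none higher, where 18.4% of all genes were, although 3 of 57 members were higher at an unadjusted p under 0.05, as were 2105 of 5711 genes. The members' differences ran from -2.76 to 0.69 with a median of -0.70, beside 0.05 over all genes. In the middle window 24 were already lower than early, where 11.0% of all genes were called lower, with a median of -0.91, beside -0.06 over all genes. NOP1 (-2.07), NOP58 (-2.04) and NOP56 (-1.89) were the lowest of the middle window and UTP7 the highest at 0.13. Pseudocount 5 in place of 1 left 10 members called late (11.5% of all genes) and 9 in the middle window (8.30%).

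The 3 box C/D proteins fell furthest in WT. NOP58 (chrXV:896825-898360, minus strand) had a lowest, median and highest of 9.17, 10.8 and 17.9 rescaled TPM in the 9 late WT libraries, against 72.5, 85.3 and 109 in the 7 early ones. The windows did not overlap, and NOP58 was lower late by -2.76 (SE 0.38, adjusted p = 4.0e-09). NOP56 (chrXII:546097-547611, plus strand) had 18.1, 23.7 and 36.3 late and 67.4, 136 and 188 early, again without overlap (-2.42, SE 0.37, adjusted p = 5.5e-08). NOP1 (chrIV:427364-428347, plus strand), the fibrillarin methyltransferase, had 47.5, 59.5 and 86.8 late and 199, 331 and 420 early (-2.31, SE 0.42, adjusted p = 3.5e-06). All 3 were below 0.5 of growth level from 9 h to the end of the WT course. NOP10 was at -0.98 (SE 0.27, adjusted p = 1.1e-03), short of the fold threshold, and was called by median of ratios, a scaling described with the deletion strains, at -1.02.

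Next came the UTP complexes and the factors that act on both subunits. UTP8 and UTP9, subunits of UTP-A, the complex that first binds the rRNA precursor, were lower late in WT by -1.91 (SE 0.30, adjusted p = 1.2e-07) and -1.85 (SE 0.28, adjusted p = 3.4e-08). UTP8 had 2.31, 2.94 and 4.54 rescaled TPM late, against 11.6, 12.9 and 18.5 early. UTP22, of the UTP-C complex, followed at -1.61 (SE 0.28, adjusted p = 1.0e-06). Of the 6 UTP-A members 3 were called lower, of the 4 UTP-B members 2 (UTP21 at -1.57 and UTP13 at -1.44), and of UTP-C and the U3 protein RRP9 2 of 3. RRP12 (-1.44), which helps export both subunits, and RRP5 (-1.40), which binds the precursor of both, were called. Of the 15 other small-subunit factors 3 were called lower, with a median of -0.49, and of 16 large-subunit factors 4, with a median of -0.50. None of the 7 exosome members was called, with a median of -0.29. RRP4, RRP6 and RRP40 lay closest to 0, at 0.0010, -0.08 and -0.23, and RRP45 was lowest at -0.89.

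Some members were higher late than early in WT without passing the fold threshold. NOP19, a component of the small-subunit processome, had a lowest, median and highest of 15.3, 26.3 and 34.5 rescaled TPM late, against 8.10, 14.6 and 23.6 early (log2 difference 0.69, SE 0.21, adjusted p = 3.1e-03). RRP15, a large-subunit factor, had 22.4, 38.8 and 75.3 late and 16.0, 22.7 and 39.2 early (0.64, SE 0.23, adjusted p = 0.0128). UTP7, a small-subunit processome protein, had 14.0, 16.9 and 22.5 late and 8.62, 11.1 and 14.0 early (0.59, SE 0.14, adjusted p = 1.6e-04). The windows overlapped widely for NOP19 and RRP15, and for UTP7 by no more than the lowest late and the highest early library. NOP16, a large-subunit factor, stood at 0.38 (SE 0.27, adjusted p = 0.221). NOP16, NOP19 and RRP15, but not UTP7, also moved up and down in turn between successive WT libraries, a pattern described below. At 46 h 8 members were at least 2-fold higher than at 38 h in WT, where 3.06% of all genes were, and RRP15 had the largest step at 1.32.

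In both deletion strains nearly the whole set was lower late than early. In the nde1Δ nde2Δ ndi1Δ strain 50 of 57 members were called lower, where 40.1% of all genes were, with a median of -2.04, beside -0.72 over all genes. In cox4Δ 48 were called lower, where 34.3% of all genes were, with a median of -1.90, beside -0.54 over all genes. In both strains 46 members were called, and the 19 members called lower in WT were all among the 50 of the nde1Δ nde2Δ ndi1Δ strain. With 50 and 48 of 57 members called, overlaps near this size follow from the counts alone. The strains share no libraries, but the fit pools their spread. The share of all genes called in both was not counted. Scaling by median-of-ratios size factors, which sets the typical gene to no change, gave 37 members called lower in each strain, where 20.5% of all genes were in the nde1Δ nde2Δ ndi1Δ strain and 20.2% in cox4Δ. The members' medians were then -1.44 in the nde1Δ nde2Δ ndi1Δ strain and -1.42 in cox4Δ, and those of all genes -0.03 and -0.01.

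On the log2(rescaled TPM + 1) scale NOP58 and NOP56 were lowest in the nde1Δ nde2Δ ndi1Δ strain, at -3.61 (SE 0.38, adjusted p = 7.2e-13) and -3.47 (SE 0.37, adjusted p = 9.4e-13). NOP56 was lowest in cox4Δ at -3.63 (SE 0.37, adjusted p = 2.7e-13), followed by NOP58 at -3.35. The late libraries of NOP58 held 3.54, 8.33 and 8.63 rescaled TPM (lowest, median, highest) in the nde1Δ nde2Δ ndi1Δ strain, against 72.5, 94.3 and 118 early. The late and early windows stood far apart. UTP9 (-3.36), NOP7 (-3.34), NOP1 (-3.20) and RRP12 (-3.01) came next in the nde1Δ nde2Δ ndi1Δ strain. NOP1 (-3.24), NOP7 (-3.12) and NOP14 (-2.93), a small-subunit factor, came next in cox4Δ. This order depends on the scale, which understates changes of low genes. NOP14 averaged 0.749 rescaled TPM late and 11.4 early in the nde1Δ nde2Δ ndi1Δ strain, beside 7.10 and 96.4 for NOP58. In cox4Δ NOP14 averaged 0.660 and 11.6, beside 12.0 and 158 for NOP56. By the ratio of these means NOP14 fell further. All members of UTP-A, UTP-B and UTP-C with RRP9 were called in both strains by total, whereas median of ratios called 5 of 6 of UTP-A in cox4Δ and 2 of 3 of UTP-C with RRP9 in each strain. Of 7 exosome members 6 were called in the nde1Δ nde2Δ ndi1Δ strain (median -1.16) and 4 in cox4Δ (median -1.07), and by median of ratios 1 in each. Members not called in the nde1Δ nde2Δ ndi1Δ strain were UTP7, RRP8, NOP53, RRP4, RRP15, RRP14 and NOP16, of which NOP16 lay closest to 0 at -0.12 (SE 0.27, adjusted p = 0.698). NOP16 was also closest to 0 in cox4Δ, at -0.21 (SE 0.27, adjusted p = 0.492), followed by RRP14 at -0.49. By median of ratios NOP16 was above 0, at 0.62 in the nde1Δ nde2Δ ndi1Δ strain and 0.36 in cox4Δ, as was RRP14, at 0.14 and 0.05.

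**Figure D3:**
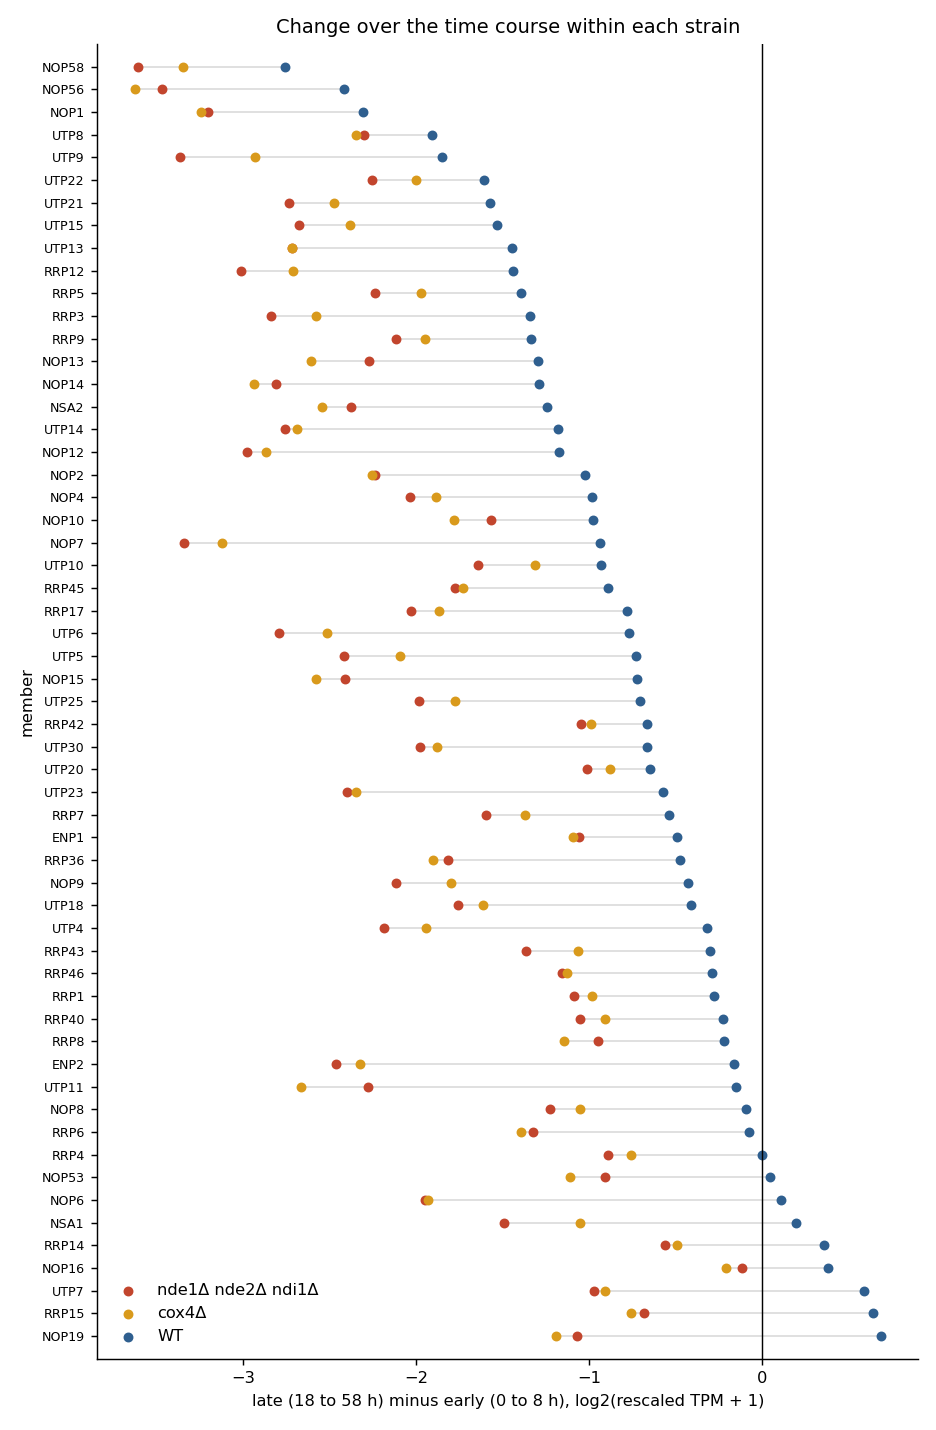
Late minus early difference of each of the 57 members on the log2(rescaled TPM + 1) scale in the nde1Δ nde2Δ ndi1Δ strain, cox4Δ and WT, ordered by the WT value. WT points run from -2.76 for NOP58 to 0.69 for NOP19, and the points of both deletion strains lie to their left in every row.

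The difference between the strains' changes was itself tested. The late minus early change was lower in the nde1Δ nde2Δ ndi1Δ strain than in WT for 36 members, where 33.5% of all genes were called lower, with a median of -1.16, beside -0.72 over all genes. It was lower in cox4Δ than in WT for 32 members, where 26.1% of all genes were called lower, with a median of -1.16, beside -0.56 over all genes. No member's change was called higher in either, where 2.78% and 3.43% of all genes were for the nde1Δ nde2Δ ndi1Δ strain and cox4Δ. NOP7 had the lowest value for the nde1Δ nde2Δ ndi1Δ strain at -2.41 (SE 0.28, adjusted p = 1.2e-09) and UTP11 for cox4Δ at -2.52 (SE 0.37, adjusted p = 2.3e-07). UTP20 was nearest to 0 in both, at -0.36 (SE 0.17, adjusted p = 0.0606) for the nde1Δ nde2Δ ndi1Δ strain and -0.23 (SE 0.17, adjusted p = 0.240) for cox4Δ. Both comparisons use the same WT libraries. By median of ratios 13 members were called in each, where 7.53% of all genes were for the nde1Δ nde2Δ ndi1Δ strain and 7.65% for cox4Δ, and UTP20 was above 0, at 0.20 and 0.18. With pseudocount 5 the counts were 14 (19.1% of all genes) and 12 (14.9%).

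Late in the course the members were lower in both deletion strains than in WT at the same times. In the nde1Δ nde2Δ ndi1Δ strain 31 of 57 were called lower, where 29.4% of all genes were, with differences from -2.13 to -0.30 and a median of -1.07, beside -0.66 over all genes. In cox4Δ 27 were called lower, where 26.3% of all genes were, with differences from -2.16 to -0.20 and a median of -0.95, beside -0.61 over all genes. Median-of-ratios scaling moved the median of all genes to 0.00 in both comparisons. It left 11 members called lower in the nde1Δ nde2Δ ndi1Δ strain, where 6.69% of all genes were, with a median of -0.50 and 7 members above 0. It left 6 in cox4Δ, where 6.72% of all genes were, with a median of -0.41 and 9 members above 0. The split of all genes called higher and lower went with it, at 524 and 382 for the nde1Δ nde2Δ ndi1Δ strain by median of ratios and 154 and 1681 by total. For cox4Δ it was 457 and 384 by median of ratios and 135 and 1504 by total. Pseudocount 5 left 10 of 57 members in the nde1Δ nde2Δ ndi1Δ strain (16.0% of all genes) and 7 in cox4Δ (14.4%). With that pseudocount members were called about as often as all genes in the nde1Δ nde2Δ ndi1Δ strain, and less often in cox4Δ. No member was called higher, where 2.70% of all genes were in the nde1Δ nde2Δ ndi1Δ strain and 2.36% in cox4Δ.

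Of the 6 members with the widest late differences in the nde1Δ nde2Δ ndi1Δ strain 5 act on the small subunit, and none was among the 6 lowest late against early in WT. Both comparisons hold the same late WT libraries with opposite sign, so different names at the low end are partly built in. NOP7 (chrVII:695417-697234, plus strand), which acts with ERB1 and YTM1 in large-subunit assembly, had 2.03, 3.0 and 4.26 rescaled TPM (lowest, median, highest) in the nde1Δ nde2Δ ndi1Δ strain and 2.88, 3.73 and 4.62 in cox4Δ, against 7.69, 15.6 and 24.8 in WT. No late library of a deletion strain reached the lowest WT library, and the differences were -2.13 (SE 0.18, adjusted p = 5.7e-14) and -1.82 (SE 0.18, adjusted p = 5.6e-12). UTP11 (chrXI:255720-256472, minus strand), a small-subunit processome protein, had 0.999, 3.12 and 5.24 in the nde1Δ nde2Δ ndi1Δ strain and 1.52, 2.12 and 7.66 in cox4Δ, against 11.0, 15.6 and 29.0 in WT. Again the groups did not overlap, with differences of -2.10 (SE 0.24, adjusted p = 1.5e-10) and -2.16 (SE 0.24, adjusted p = 8.7e-11). ENP2 (chrVII:781767-783890, plus strand), also of the small-subunit processome, had 0.786, 1.61 and 3.22 in the nde1Δ nde2Δ ndi1Δ strain and 1.24, 1.89 and 2.79 in cox4Δ, against 5.48, 10.4 and 17.2 in WT. Its differences were -2.04 (SE 0.17, adjusted p = 1.3e-14) and -1.97 (SE 0.17, adjusted p = 3.5e-14), without overlap. All 3 were lower in each deletion strain at 9 of 9 late times, and all 3 stayed called under median of ratios, at -1.53, -1.5 and -1.5 for NOP7, UTP11 and ENP2 in the nde1Δ nde2Δ ndi1Δ strain and at -1.24, -1.62 and -1.46 in cox4Δ. In WT their own late minus early differences were -0.94, -0.15 and -0.16.

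NOP6, NOP19 and UTP6 completed the 6 lowest members of the nde1Δ nde2Δ ndi1Δ strain. NOP6 had 4.48, 6.82 and 14.4 rescaled TPM there and 6.79, 9.19 and 16.8 in cox4Δ, against 17.3, 27.0 and 53.0 in WT (-1.79, SE 0.18, and -1.44, SE 0.18). NOP19 had 3.18, 6.37 and 9.14 in the nde1Δ nde2Δ ndi1Δ strain and 3.55, 6.57 and 12.7 in cox4Δ, against 15.3, 26.3 and 34.5 in WT (-1.79, SE 0.18, and -1.62, SE 0.18). UTP6, of UTP-B, had 0.598, 1.02 and 1.71 in the nde1Δ nde2Δ ndi1Δ strain and 0.647, 1.13 and 2.53 in cox4Δ, against 4.37, 6.16 and 11.4 in WT (-1.78, SE 0.20, and -1.63, SE 0.20). None of these groups overlapped WT. NOP19 and UTP11 were among the members that moved up and down in turn between successive WT libraries, as described below. Late against early, NOP6 and NOP19 were at 0.11 and 0.69 in WT. UTP4, of UTP-A, was among the 6 lowest in cox4Δ at -1.54 (SE 0.15, adjusted p = 4.1e-12). In cox4Δ NOP6 and UTP4 were not called by median of ratios, at -0.82 and -0.97.

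Lower values without overlap in both deletion strains were also found for other members, among them NOP14, NOP15, UTP4 and UTP7. How many members, and what share of all genes, lacked overlap was not counted. UTP4 had 1.3, 3.85 and 4.66 rescaled TPM in the nde1Δ nde2Δ ndi1Δ strain and 3.06, 3.76 and 5.14 in cox4Δ, against 8.91, 14.3 and 16.4 in WT. UTP7 had 4.75, 6.48 and 8.08 in the nde1Δ nde2Δ ndi1Δ strain and 5.22, 6.16 and 7.39 in cox4Δ, against 14.0, 16.9 and 22.5 in WT. UTP7 was at -1.35 (SE 0.12) in each, called lower, and was called in neither by median of ratios, at -0.71 and -0.75.

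**Figure D4:**
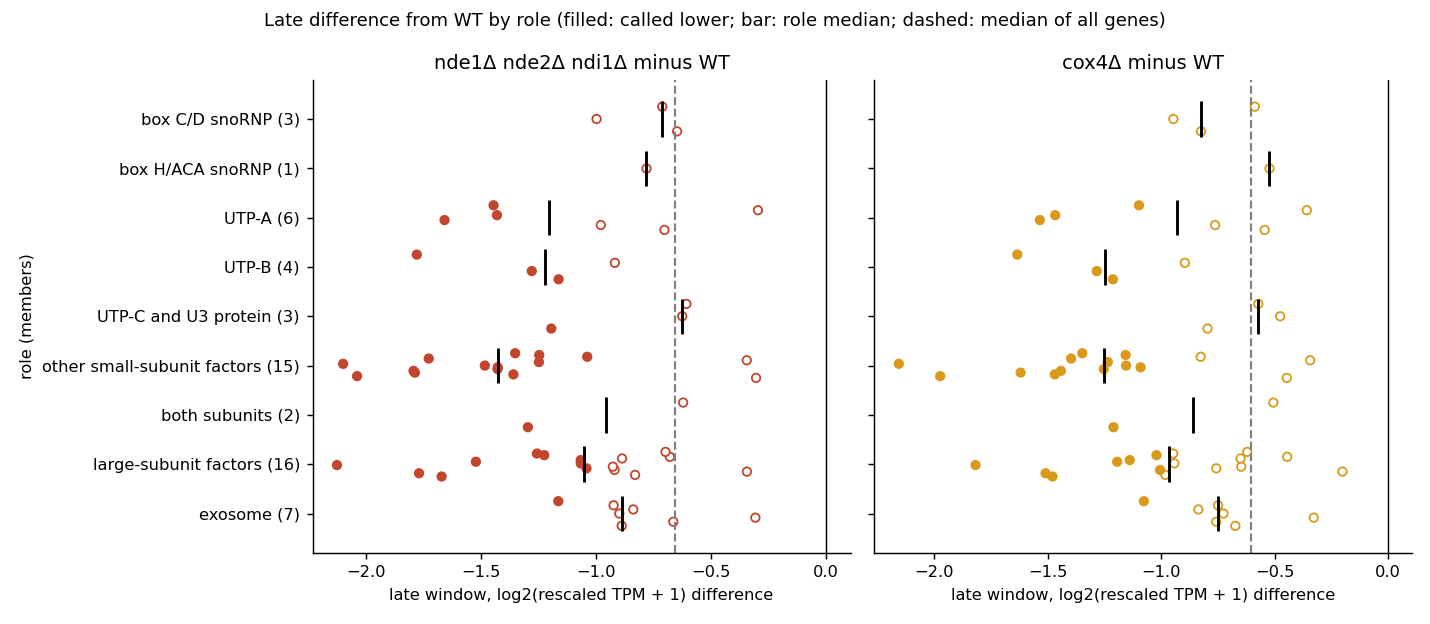
Late-window difference from WT of each member on the log2(rescaled TPM + 1) scale, by role, for the nde1Δ nde2Δ ndi1Δ strain (left) and cox4Δ (right), with filled points called lower, a bar at the role's median and a dashed line at the median of all genes. In the other small-subunit factors 13 of 15 points are filled on the left and 12 on the right, and no box C/D point is filled.

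By role the order differed from the one within WT, though both orders use the same late WT libraries with opposite sign. Of the 15 other small-subunit factors 13 were called lower in the nde1Δ nde2Δ ndi1Δ strain (median -1.43), where 29.4% of all genes were, and 12 in cox4Δ (median -1.25), where 26.3% were. Of the 4 UTP-B members 3 were called in each, of the 6 UTP-A members 3 in each, and of 16 large-subunit factors 9 in the nde1Δ nde2Δ ndi1Δ strain and 7 in cox4Δ. By median of ratios, where 6.69% and 6.72% of all genes were called lower in the nde1Δ nde2Δ ndi1Δ strain and cox4Δ, the counts were 6 and 4 other small-subunit factors, 1 and 1 of UTP-B, 1 and 0 of UTP-A and 3 and 1 large-subunit factors. None of the 3 box C/D genes was called in either, with medians of -0.71 in the nde1Δ nde2Δ ndi1Δ strain and -0.82 in cox4Δ that came to -0.07 and -0.18 by median of ratios, where NOP1 alone of the 3 was above 0, in the nde1Δ nde2Δ ndi1Δ strain at 0.05. NOP1 had 24.5, 37.8 and 65.0 rescaled TPM late in the nde1Δ nde2Δ ndi1Δ strain and 17.7, 40.3 and 60.9 in cox4Δ, against 47.5, 59.5 and 86.8 in WT. These groups overlapped, and the differences were -0.65 (SE 0.26, adjusted p = 0.0219) and -0.82 (SE 0.26, adjusted p = 4.1e-03). NOP58, by contrast, did not overlap between the nde1Δ nde2Δ ndi1Δ strain, with a highest value of 8.63, and WT, with a lowest of 9.17. In the exosome RRP6, its nuclear exonuclease, was called in both (-1.16, SE 0.11, and -1.08, SE 0.11), and the other 6 in neither. RRP6 was called in neither by median of ratios, at -0.53 and -0.48. RRP6 had 3.55, 5.91 and 6.89 rescaled TPM in the nde1Δ nde2Δ ndi1Δ strain and 4.43, 5.87 and 9.16 in cox4Δ, against 11.4, 14.2 and 16.4 in WT.

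The ring and cap subunits of the exosome did not reach the fold threshold. RRP45 was at -0.84 in both strains, RRP46 at -0.92 in the nde1Δ nde2Δ ndi1Δ strain and -0.75 in cox4Δ, and RRP43 at -0.90 and -0.73. RRP4 and RRP40, the cap proteins among the members, were at -0.89 and -0.66 in the nde1Δ nde2Δ ndi1Δ strain and -0.67 and -0.76 in cox4Δ. RRP40 was at 0.04 by median of ratios in the nde1Δ nde2Δ ndi1Δ strain, and the other values of these 5 genes stayed below 0. RRP42 lay closest to 0, with 21.1, 26.5 and 37.1 rescaled TPM in the nde1Δ nde2Δ ndi1Δ strain and 18.7, 30.6 and 38.8 in cox4Δ, against 26.9, 33.5 and 47.8 in WT. Its groups overlapped, its differences were -0.31 (SE 0.14, adjusted p = 0.0361) and -0.33 (SE 0.14, adjusted p = 0.0268), and by median of ratios they were 0.39 and 0.31.

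The other members nearest to WT were UTP8, NOP16, ENP1 and UTP20. UTP8, which was at -1.91 late against early within WT, had 1.31, 2.27 and 4.53 rescaled TPM in the nde1Δ nde2Δ ndi1Δ strain and 0.350, 2.72 and 5.12 in cox4Δ, against 2.31, 2.94 and 4.54 in WT. The groups overlapped (-0.30, SE 0.19, adjusted p = 0.141, and -0.36, SE 0.19, adjusted p = 0.0775). NOP16 had 11.7, 34.9 and 67.1 in the nde1Δ nde2Δ ndi1Δ strain and 14.2, 39.2 and 59.1 in cox4Δ, against 18.3, 44.9 and 76.1 in WT, with wide overlap (-0.34, SE 0.21, adjusted p = 0.135, and -0.20, SE 0.21, adjusted p = 0.391). ENP1, a small-subunit factor needed for export, was at -0.30 in the nde1Δ nde2Δ ndi1Δ strain, and UTP20, a very large small-subunit protein, at -0.34 in cox4Δ. UTP8 was by median of ratios at 0.22 in the nde1Δ nde2Δ ndi1Δ strain and 0.06 in cox4Δ, NOP16 at 0.36 and 0.45, ENP1 at 0.35 in the nde1Δ nde2Δ ndi1Δ strain and UTP20 at 0.11 in cox4Δ.

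**Figure D5:**
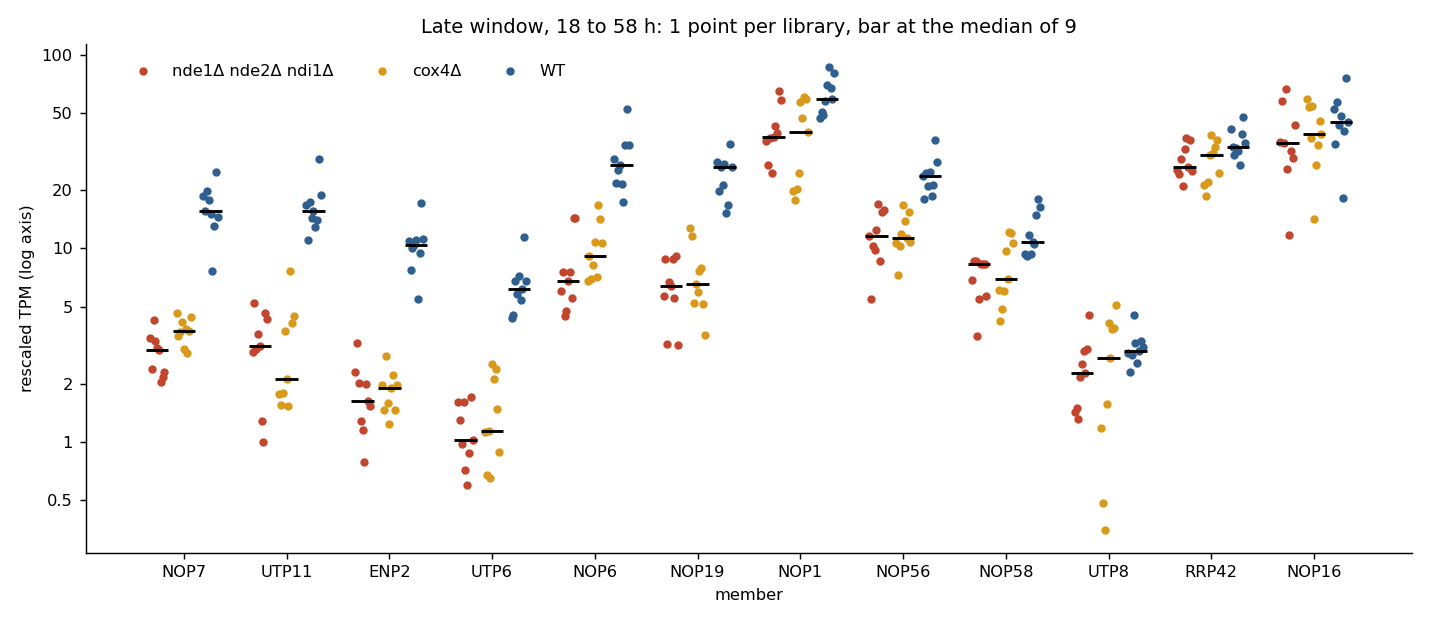
Rescaled TPM (log axis) of 12 members in each of the 9 late libraries of the nde1Δ nde2Δ ndi1Δ strain, cox4Δ and WT, with bars at the medians. The 6 members on the left lie below every WT library in both deletion strains, and UTP8, RRP42 and NOP16 on the right overlap WT.

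In the middle window no member passed the fold threshold against WT. This window averages libraries from before and after the falls. The median member went from 0.594 of growth level at 9 h to 0.150 at 13 h in the nde1Δ nde2Δ ndi1Δ strain. In cox4Δ it went from 0.775 at 9 h to 0.157 at 14 h. Limma called 0 members lower in the nde1Δ nde2Δ ndi1Δ strain, where 3.68% of all genes were, although 45 of 57 were lower at an unadjusted p under 0.05, as were 2986 of 5711 genes. The members' median was -0.58, beside -0.34 over all genes, and -0.29 by median of ratios. Without the 10 h time point 9 members were called, where 7.69% of all genes were. It called 0 lower in cox4Δ, where 2.33% of all genes were, with 30 of 57 at an unadjusted p under 0.05, as were 2282 of 5711 genes. The median was -0.38, beside -0.27 over all genes, and -0.17 by median of ratios. UTP15 was lowest in the nde1Δ nde2Δ ndi1Δ strain at -1.0 (SE 0.22, adjusted p = 4.4e-04) and UTP5 in cox4Δ at -0.93, both of UTP-A. NOP53, a large-subunit factor that guides the exosome, was highest in both, at 0.11 and 0.20, but below 0 in both without the 10 h time point, at -0.12 and -0.03.

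No member was called between the deletion strains. Late in the course limma called 0 members between cox4Δ and the nde1Δ nde2Δ ndi1Δ strain, where it called 0.210% of all genes higher and 0.0876% lower, and 3 members were higher and 0 lower at an unadjusted p under 0.05. The median was 0.13, and the values ran from -0.18 for NOP1 to 0.40 for RRP7, a UTP-C protein (SE 0.17, adjusted p = 0.309).

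The courses of most members were alike in the deletion strains and less so in WT. The Pearson correlation of each member with the median of the others over 24 times had a median of 0.933 in the nde1Δ nde2Δ ndi1Δ strain, 0.942 in cox4Δ and 0.761 in WT. Values over time in 1 strain share libraries, so these are descriptions. NOP58 was most like the others in the nde1Δ nde2Δ ndi1Δ strain (0.986), NOP56 in cox4Δ (0.984) and NOP14 in WT (0.933). NOP16 was least like them in the nde1Δ nde2Δ ndi1Δ strain (0.127) and in cox4Δ (0.172), and UTP7 in WT (-0.342). In WT 11 members, among them NOP16, NOP19, NOP53, RRP15 and UTP11, moved up and down in turn at each of 13 steps between 9 and 32 h. So did 9.42% of all genes tested, and the pattern was chosen after the values were seen. NOP53 had 14.7, 2.67, 11.7 and 6.04 rescaled TPM at 9, 10, 11 and 12 h in WT. In the nde1Δ nde2Δ ndi1Δ strain RRP17 and RRP8 did so, with 0.315% of all genes, and in cox4Δ no member, with 0.0700%. Successive WT libraries also had successive position codes, whose part was not tested.

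Other genes of the pathway, from lists of factors that the name rule leaves out, were counted in the same way. Of all genes 29.4% were called lower late against WT in the nde1Δ nde2Δ ndi1Δ strain and 26.3% in cox4Δ. Late against early within WT 14.7% of all genes were. Of 41 small-subunit factors outside the name rule 29 were called lower late in the nde1Δ nde2Δ ndi1Δ strain than in WT (median -1.30) and 25 in cox4Δ (median -1.09), and 8 were lower late than early in WT. Of 51 such large-subunit factors 30 were called lower in the nde1Δ nde2Δ ndi1Δ strain, 27 in cox4Δ, where 1 was called higher, and 22 within WT. Of 8 RNA polymerase I subunits 5 were called in the nde1Δ nde2Δ ndi1Δ strain, 3 in cox4Δ and 6 within WT. By median of ratios the counts in the nde1Δ nde2Δ ndi1Δ strain and cox4Δ were 7 and 4 small-subunit factors, 11 and 9 large-subunit factors and 0 and 0 polymerase subunits. Over all genes 6.69% and 6.72% were called lower by that scaling. The 138 cytosolic ribosomal protein genes, called lower within WT in 131 cases, were called lower in 26 and 12, with medians of -0.63 and -0.56 that changed sign to 0.08 and 0.10 by median of ratios. The counts of 26 and 12 are smaller shares than those over all genes.

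Of 10 regulators of the regulon 4 were called lower late against WT in the nde1Δ nde2Δ ndi1Δ strain, where 29.4% of all genes were. In cox4Δ 5 were, where 26.3% of all genes were. Their medians were -0.84 and -1.02, beside -0.66 and -0.61 over all genes. By median of ratios 1 was called in each, where 6.69% and 6.72% of all genes were. SFP1, TOD6, DOT6 and STB3 are described here. SFP1, an activator of ribosome biogenesis genes, averaged 12.0 ± 2.27 rescaled TPM late in the nde1Δ nde2Δ ndi1Δ strain and 13.2 ± 1.97 in cox4Δ, against 30.8 ± 4.47 in WT (SD, n = 9 each), and was called lower in both (-1.30 and -1.16, SE 0.16 each). SFP1 was called in neither by median of ratios, at -0.62 and -0.53. The repressor gene TOD6 averaged 2.57 ± 0.94 and 3.25 ± 1.05 in the nde1Δ nde2Δ ndi1Δ strain and cox4Δ, against 11.7 ± 2.58 in WT, and was called lower in both by either scaling (-1.85 and -1.59, SE 0.17 each). DOT6, its relative, averaged 381 ± 206, 197 ± 95.5 and 461 ± 130 in the nde1Δ nde2Δ ndi1Δ strain, cox4Δ and WT. It was called higher late than early in all 3 strains, at 1.75, 1.48 and 2.24 (SE 0.34 each). Against WT DOT6 was at -0.46 in the nde1Δ nde2Δ ndi1Δ strain, not called, and at -1.35 in cox4Δ, called lower. It was called in neither by median of ratios, at 0.26 and -0.68. STB3 averaged 11.8 ± 1.64, 10.0 ± 1.68 and 23.1 ± 5.44 and was at -0.88 (SE 0.14) in the nde1Δ nde2Δ ndi1Δ strain, not called, and at -1.11 (SE 0.14) in cox4Δ, called lower. STB3 was called in neither by median of ratios, at -0.21 and -0.49.

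Changes were also set out by the letters upstream. Of the 35 members with PAC and RRPE 31 were called lower late than early in the nde1Δ nde2Δ ndi1Δ strain (median -2.28), 30 in cox4Δ (median -2.35) and 15 in WT (median -0.94). Of the 19 members with 1 of them 16, 15 and 3 were called, with medians of -1.60, -1.39 and -0.30. RRP45, RRP46 and UTP22, with neither, were called in both deletion strains. Among genes that are no members the share called lower in the nde1Δ nde2Δ ndi1Δ strain was 72.9% of 299 with both, 43.9% of 1267 with 1 and 35.8% of 4081 with neither. In cox4Δ these shares were 66.2%, 38.6% and 30.0%, and in WT 27.1%, 17.2% and 12.8%. Late against WT 18 of 35 members with both were called lower in the nde1Δ nde2Δ ndi1Δ strain, 13 of 19 with 1 and 0 of 3 with neither, and in cox4Δ 15, 12 and 0. Among genes that are no members the shares called lower late against WT were 45.2%, 29.6% and 27.9% in the nde1Δ nde2Δ ndi1Δ strain and 39.8%, 26.3% and 25.1% in cox4Δ. Coding length moved with the WT values too: 1 of 16 members under 900 bases, 9 of 22 between 900 and 1800 bases and 9 of 19 over 1800 bases were called lower late than early in WT. Over all genes the median differences in these classes were 0.13, 0.09 and -0.06, and 14.7% of all genes together were called lower. Late in the nde1Δ nde2Δ ndi1Δ strain against WT the members called lower were 10 of 16, 9 of 22 and 12 of 19. Over all genes the medians there were -0.61, -0.69 and -0.67, and 29.4% of all genes together were called lower. Calls over all genes were not counted by length. The part of length was not tested.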

How the data were processed

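RNA of 3 strains at 24 times was depleted of ribosomal RNA and made into stranded total RNA libraries, per the labels' protocols. The deposited values are TPM per gene. Software listed in the submitters' processing notes is Salmon 0.9.1 and bcl2fastq 2.20.0.422, with sacCer3 as build. No annotation or strand setting is stated in what was used here. TPM holds no read counts, so count tests were not used. The lowest value in the table is 0.1 TPM. Coordinates and upstream sequence come from the RefSeq copy of the yeast genome.

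TPM were rescaled to one sum over the 5780 nuclear protein-coding genes of each library. The 5711 genes whose mean reached 1 rescaled TPM entered the fits on log2(rescaled TPM + 1) with limma 3.58.1 in R 4.3.3 (trend and robust empirical Bayes), with Benjamini-Hochberg adjustment over all of them. Comparisons between windows of a strain used 9 strain and window means (63 residual degrees of freedom). Comparisons between strains kept the sampling time as a block (42), because all 3 strains were sampled at the same times. The fit was tested on simulated data. The alternatives were median-of-ratios size factors, pseudocount 5, no filter, shorter windows, plain empirical Bayes, no time block and leaving out each time point. Members named are the 6 lowest and 4 highest of the main comparisons, the 3 lowest and highest of the others, all box C/D and exosome genes, extremes of likeness and those against the majority; RRP5, RRP9, RRP12, RRP17 and UTP13 were chosen after their values were seen. The members and gene lists were chosen with earlier results of these data known.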

Additional observations from a re-analysis of the deposited data

Results flagged for a closer look

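In 99 groups of 7 to 9 libraries tested, of a member, strain and window, 1 library stood apart: NOP16 in cox4Δ at 5 h, at 4.75 on the log2(rescaled TPM + 1) scale, below the other 6 early libraries of that strain, of which the nearest was at 5.40. Chance marks about 1 in 20 groups. The groups tested are only part of those that the 57 members make over strains and windows, so the result does not cover the whole set.

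The change between the late and early windows differed between the deletion strains and WT in the test of that difference. For the nde1Δ nde2Δ ndi1Δ strain against WT 36 members were called lower, where 33.5% of all genes were, led by NOP7 (-2.41), ENP2 (-2.30) and UTP11 (-2.13). For cox4Δ against WT 32 were called lower, where 26.1% of all genes were, led by UTP11 (-2.52), NOP7 (-2.18) and ENP2 (-2.17). By median of ratios 13 members were called lower in each, where 7.53% and 7.65% of all genes were.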

How the results depend on the processing

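Pseudocount 5 in place of 1 gave fewer members called lower: within WT 10 late and 9 middle; late against WT 10 in the nde1Δ nde2Δ ndi1Δ strain and 7 in cox4Δ; for the difference of changes 14 and 12. Median-of-ratios scaling gave 11 and 6 late against WT and 13 and 13 for the difference of changes. The shares over all genes for these counts stand with the results above. Pseudocount 5 shrinks low genes and median of ratios centres the typical gene by construction. Leaving out each time point in turn gave 18 to 22 members lower late and 20 to 27 middle in WT, 48 to 51 and 47 to 50 late against early in the nde1Δ nde2Δ ndi1Δ strain and cox4Δ, 30 to 35 and 24 to 30 late against WT, 34 to 39 and 31 to 33 for the difference of changes, and in the middle window 0 to 9 and 0 to 1 (4, 9, 2 and 1 without 9, 10, 11 and 12 h in the nde1Δ nde2Δ ndi1Δ strain, 1 without 9, 11 or 12 h in cox4Δ). The cause was not tested. Fits without the time point as a block moved none of 18 counts by over 1.5 times and changed none of 62 calls of named members. No filter, plain empirical Bayes and a late window from 20 h changed no named call (90 each).

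The signs of the following members turned. By median of ratios they were NOP19 in middle WT (0.0181); RRP15 (0.0397), RRP14 (0.14) and NOP16 (0.62) late in the nde1Δ nde2Δ ndi1Δ strain; RRP14 (0.0514) and NOP16 (0.36) late in cox4Δ; NOP16 (0.36), RRP42 (0.39), ENP1 (0.35) and UTP8 (0.22) in the nde1Δ nde2Δ ndi1Δ strain and UTP8 (0.0605), UTP20 (0.11), RRP42 (0.31) and NOP16 (0.45) in cox4Δ, late against WT; and, for the difference of changes, UTP8 (0.20), RRP42 (0.39) and UTP20 (0.20), and UTP10 (0.10), RRP42 (0.27) and UTP20 (0.18). With an early window of 4 to 8 h they were NOP19 in middle WT (0.15) and, in the nde1Δ nde2Δ ndi1Δ strain early, NOP10 (0.0046) and RRP36 (0.18). Without 1 time point they were NOP19 in middle WT (0.0010, 0.10 and 0.08 without 0, 2 and 10 h, range -0.14 to 0.10), NOP16 late in the nde1Δ nde2Δ ndi1Δ strain (0.0646 without 32 h, lowest -0.24), and in the middle window against WT NOP16 (-0.11, -0.08 and -0.13 without 10, 14 and 16 h), NOP53 (-0.12, -0.0066 and -0.05, highest 0.29) and RRP8 (-0.09 without 10 h and -0.0932 without 14 h) in the nde1Δ nde2Δ ndi1Δ strain and NOP53 in cox4Δ (-0.0333 without 10 h, highest 0.38).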
